A study of Mus musculus with 12 samples.

Results

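The reporter interaction is the change that goes with red fluorescence in green-fluorescent cells, minus the same change in cells without green fluorescence. Red and green effects are differences between sorted populations of cells that all hold both reporters. The interaction was computed as (double-positive minus green-only) minus (red-only minus double-negative), within each of experiments A, B and C. All 12 arrays of the series enter it, 3 from each of 4 sorted populations, and it was described for 13700 of the 18193 genes represented on the arrays. The arrays are single-colour Affymetrix mouse arrays hybridised with biotinylated cRNA from 5 ug of total RNA. The cells were mouse embryonic stem cells grown as embryoid bodies, aggregates formed in hanging drops in which early embryonic tissues arise together, and were dissociated on day 6. All populations came from cells with a dsRed reporter specific for the second heart field and an eGFP reporter under a cardiac-specific enhancer, and flow sorting gave double-positive (Red+/Green+), red-only (Red+/Green-), green-only (Red-/Green+) and double-negative (Red-/Green-) cells. The titles were used for this grouping, since the sort description prints Red+/Green- a second time in place of the double-negative cells. The labels name neither the enhancers nor the stem cell line or clone, so each population is a fluorescence gate and not a proven cell type. They also do not say whether A, B and C were separate differentiation cultures, so p-values measure the spread between these arrays, which may be technical in part.

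On the log2 scale an interaction of 0 means that the red and green effects multiply, and on the linear scale it means that they add. A positive value places the double-positive and double-negative cells above what the single-reporter cells give, and a negative value places the single-reporter cells above. As background, cells that leave pluripotency switch off a small network of transcription factors led by Pou5f1, Sox2 and Nanog. Cardiac progenitors then express Mef2c, Nkx2-5, Isl1 and Gata factors before the contractile genes, while Kdr marks early mesoderm and becomes a defining receptor of endothelium. The second heart field is the progenitor pool that adds the outflow tract and right ventricle to the heart tube. In bulk RNA, fewer cells expressing a gene and less RNA per cell cannot be told apart.

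The core cardiac factors summed to between 3341 and 3519 intensity units in the double-positive arrays and to between 571 and 691 in the double-negative arrays without overlap. In experiment A, the green-only array differed from its replicates. Its 19 epithelial genes summed to 5290 units, against 1810 and 1978 in the green-only arrays of B and C. Its 21 endoderm genes summed to 4873 units, against 1485 and 2201, and its 26 endothelial genes to 852 units, against 1968 and 1953. The standard deviation of its deviations from the population mean was 0.22 on the log2 scale, and that of the other 11 arrays ran from 0.13 to 0.18. The ratio of 3' to 5' actin probes, a sign of RNA quality, gave a log2 interaction of 0.15, -0.09 and 0.09 in experiments A, B and C.

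An interaction was called for 1330 of 13700 genes (9.71%) by limma on the log2 scale, at a Benjamini-Hochberg adjusted p below 0.05. It was above 0 for 595 genes (4.34%) and below 0 for 735 genes (5.36%), and the median over all genes was 0.04. All 595 and 732 of the 735 had the same sign in each experiment. Without the red-only array of B, 384 genes were called above 0 and 604 below 0. Without the green-only array of A the counts were 717 and 790.

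The interaction came from unequal red and green effects in the 2 backgrounds. Red-only and double-negative cells differed in 3083 genes (22.5%), whereas double-positive and green-only cells differed in 680 (4.96%). Green-only and double-negative cells differed in 2730 genes (19.9%), and double-positive and red-only cells in 1539 (11.2%). These comparisons share arrays, so their counts are not independent. Of the 595 genes above 0, 517 fell with red in green-negative cells (12.1% of all genes) and 48 rose with red in green-positive cells (2.35%). Of the 735 below 0, 617 rose with red in green-negative cells (10.4%) and 133 fell with red in green-positive cells (2.61%). For green, 460 of the 595 fell in red-negative cells (10.7%) and 121 rose in red-positive cells (5.63%), and 479 of the 735 rose in red-negative cells (9.23%) and 327 fell in red-positive cells (5.61%). Most of both sets thus changed where the fluorescence of the other reporter was absent. These values are parts of the interaction and give no separate support. The 680 fell to 308 without the double-positive array of A and to 396 without that of B, and the 1539 fell to 1001 without the double-positive array of A and to 1009 without the red-only array of A. The single-reporter populations themselves differed in 393 genes (2.87%).

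**Figure D1:**
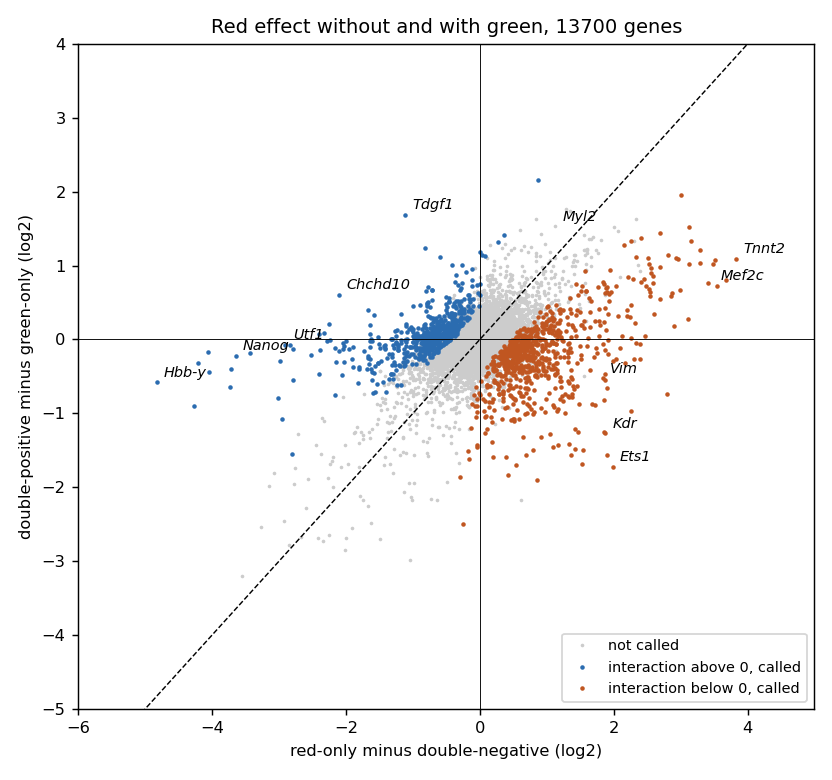
Each point is 1 of 13700 genes, with the red effect without green (red-only minus double-negative, log2) on the x axis and the red effect with green (double-positive minus green-only, log2) on the y axis. Genes on the dashed line have no interaction. The cloud of called genes is wider along x, where 3083 genes differed, than along y, where 680 did.

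Several of the largest positive log2 interactions were those of pluripotency genes that were high only in the double-negative cells. Of 19 tested members of the pluripotency list, 10 were called above 0 and 0 below 0 by limma, against 4.34% of all genes above 0. Their median was 0.92, and 6 of the 7 with an interaction above 2 on the log2 scale had the double-negative arrays apart from the other 9. On the linear scale 8 of the 19 were called above 0. The list summed to between 3889 and 4293 units in the double-negative arrays and to between 1642 and 2065 in the other 9. Epithelial genes were also high there (2727 to 3489 units in the double-negative arrays, 519 to 900 in the double-positive and red-only arrays, and 5290, 1810 and 1978 in the green-only arrays of A, B and C, the first of which was above every double-negative array), and so were neural genes (411 to 527 units against 227 to 313 in the other 9 arrays). Their part in the result was not tested.

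Utf1, a chromatin-bound factor of embryonic stem cells, measured 401, 294 and 307 units in the double-negative arrays of A, B and C. It measured 40.7, 40.1 and 39.2 in the double-positive, 47.8, 40.7 and 44.3 in the red-only, and 44.3, 39.4 and 42.7 in the green-only arrays. The double-negative arrays were high in every experiment, and the 9 others overlapped in a narrow band. The red effect on Utf1 was -2.91 ± 0.12 (SE, log2) without green and -0.07 ± 0.12 with green, so the interaction was 2.83 ± 0.17 (limma adjusted p = 2.94e-06, n = 3 arrays per population). A further probe set of Utf1 averaged 1.98 and another -0.17, so its probe sets disagreed.

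Nanog, the homeobox factor of the ground state, measured 39.5, 64.3 and 51.3 units in the double-negative arrays and between 3.40 and 5.08 in the other 9. These 9 values lay below the median of every array (6.29 to 6.73 units), where no detection call is given. All 9 were also below the filter floor of 2.38 on the log2 scale. Nanog thus entered the test only through its high double-negative arrays, and its p-values give no separate support for them. The interaction of Nanog was 3.43 ± 0.23 on the log2 scale (limma adjusted p = 7.32e-06) and 47.0 ± 6.16 units on the linear scale (limma adjusted p = 0.00103). Pou5f1, which encodes Oct4, measured 408, 456 and 329 units in the double-negative arrays and between 11.8 and 28.1 in the others, with a log2 interaction of 3.89 ± 0.39. Both genes were thus low in all 3 reporter-positive populations, which did not separate from each other.

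Sox2, the partner of Oct4, had a log2 interaction of 3.08 ± 0.39. L1td1, an RNA-binding protein of stem cells, gave 3.60 ± 0.36, and Dppa5a, a marker of the pluripotent state, 3.32 ± 0.27. Pim2, a serine/threonine kinase, was outside the list and gave 3.24 ± 0.29. Each had its 3 double-negative arrays above all others, and all were called by limma with an adjusted p of at most 0.000379. In the other arrays L1td1 ran from 5.50 to 14.0 units and Sox2 from 5.97 to 18.0. Both reached below every array median (6.29 to 6.73 units). The size of these interactions thus rests partly on levels where no detection call is given. Dnmt3b, the de novo DNA methyltransferase of the early embryo, measured 891, 1019 and 736 units in the double-negative arrays. It fell to 237, 112 and 119 in the green-only, 126, 93.3 and 120 in the red-only, and 76.6, 54.1 and 82.4 in the double-positive arrays. Its log2 interaction was 1.89 ± 0.36 (limma adjusted p = 0.0048), and here the double-positive arrays lay below all others.

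**Figure D2:**
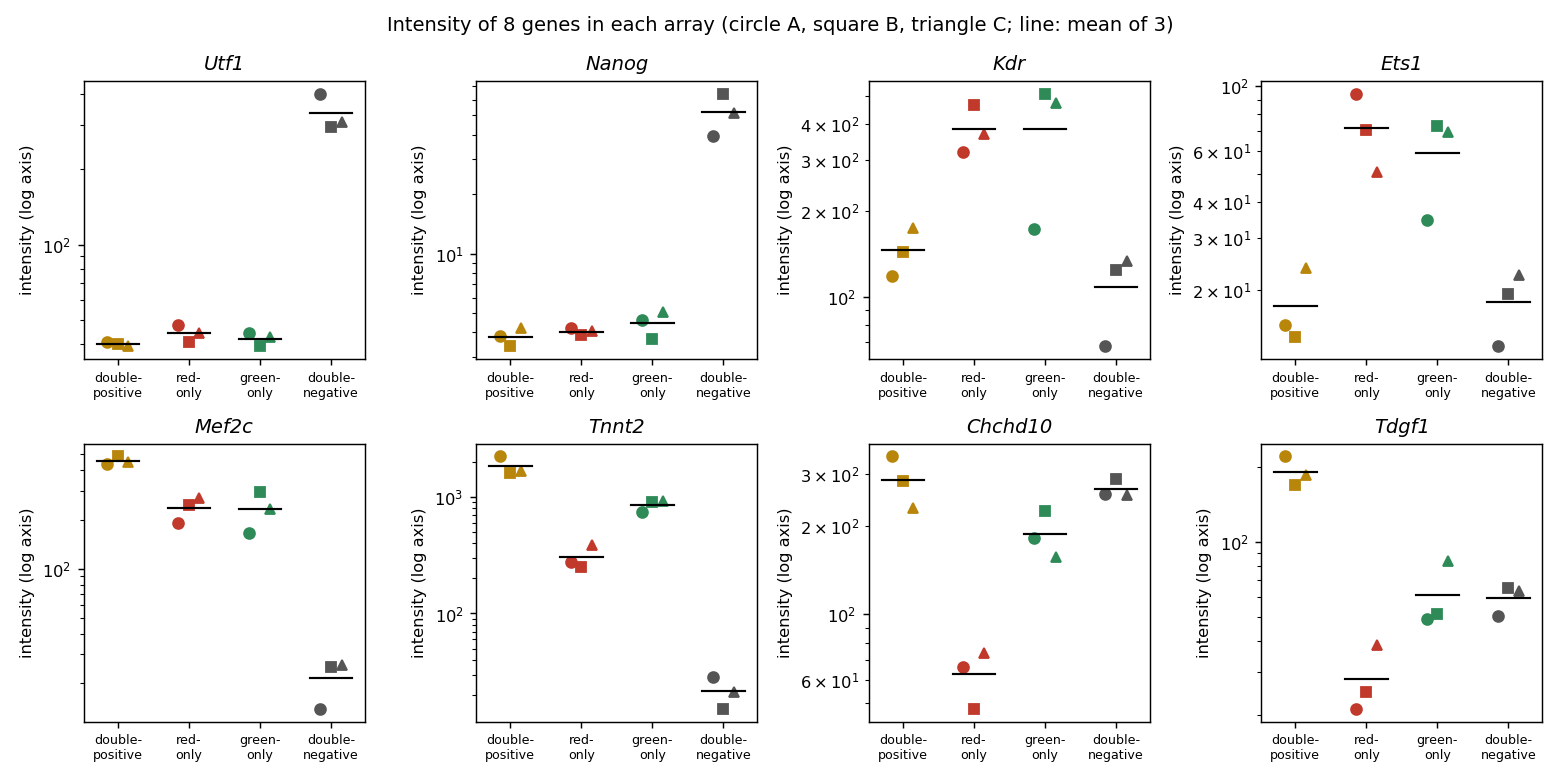
Intensity on a log axis of 8 genes in each array, by population, with experiments A, B and C as circle, square and triangle and the mean of 3 as a line. Utf1 and Nanog are high in the double-negative arrays alone, Kdr and Ets1 in the single-reporter arrays, with the green-only array of A below those of B and C, and Chchd10 is lowest in the red-only arrays.

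Embryonic globins, like many pluripotency genes, were highest in the double-negative arrays. Hbb-y, an embryonic beta-like globin, measured 197, 108 and 175 units in the double-negative arrays and between 3.66 and 7.23 in the other 9, with a log2 interaction of 4.25 ± 0.32 (limma adjusted p = 1.3e-05). Most of those 9 values lay below the median of every array, so the size of this value rests on levels where no detection call is given. Its probe set is of a type that can hybridise to related transcripts. Hba-x, the zeta globin, gave 3.89 ± 0.48, and Hbb-bh1 gave 3.37 ± 0.69 with 579, 653 and 1149 units in the double-negative arrays. These 3 globins were the called members among 12 tested blood genes, all above 0 (4.34% of all genes), and the list median was 0.29. Erythroid factors of the list such as Gata1 and Klf1 were not called, at 0.15 and 0.46 (both chosen here after their values were seen).

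Among the 595 genes with a positive interaction, 396 (66.6%) had the 3 double-negative arrays above all 9 others, a pattern found in 9.62% of all genes tested. That count was 252 without the double-positive array of B, 243 without that of C, 258 without the green-only array of B and 252 without the red-only array of B. The double-positive arrays were above all others in 48 (3.28% of all genes tested), and all 6 single-reporter arrays were below the other 6 in 52 (0.46%). A further 24 had the double-positive arrays lowest and the double-negative arrays highest (1.45%). The count of 52 was 80 without the green-only array of A.

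Summed over their list, endothelial genes were higher in the single-reporter arrays than in both other populations. Of 26 tested endothelial genes, 19 were called below 0 and 0 above 0 by limma, against 5.36% of all genes below 0. All 26 estimates were negative and the median was -1.72. By member the separation was less complete, with all 6 single-reporter arrays above the other 6 in 5 of 26 (1.05% of all genes). Double-positive cells were called lower than green-only cells for 9 of 26 (2.61%) and lower than red-only cells for 4 (5.61%). The list summed to between 1198 and 1634 units in the red-only arrays, 852 to 1968 in the green-only, 624 to 838 in the double-positive and 517 to 717 in the double-negative arrays. The green-only array of A, low in this list and high in epithelial and endoderm genes, was the array that drew the green-only range down, and without it 23 of 26 were called and the median was -2.02. On the linear scale 13 of 26 were called below 0 (4.26% of all genes). That count was 23 without the green-only array of A and ran from 6 to 8 without the double-negative array of A, the double-positive array of A or B, the green-only array of B or C, or the red-only array of B.

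Kdr, the main receptor for vascular endothelial growth factor, measured 320, 465 and 370 units in the red-only arrays and 172, 510 and 475 in the green-only arrays. It measured 118, 143 and 174 in the double-positive and 67.4, 124 and 133 in the double-negative arrays. All red-only arrays were above all double-positive and double-negative arrays, and the green-only array of A overlapped the double-positive ones. The red effect on Kdr was 1.88 ± 0.36 without green (limma adjusted p = 0.0019) and -1.27 ± 0.36 with green (limma adjusted p = 0.0589), an interaction of -3.15 ± 0.50 (limma adjusted p = 0.00168). On the linear scale it was -517 ± 99.3 units (limma adjusted p = 0.00777).

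Ets1, a transcription factor used by endothelial genes, had the most negative log2 interaction among all genes, -3.71 ± 0.44 (limma adjusted p = 0.00028). It measured 94.3, 71.0 and 50.8 units in the red-only and 34.8, 73.0 and 69.6 in the green-only arrays. In the double-positive arrays it measured 15.1, 13.7 and 23.7 units, and in the double-negative arrays 12.8, 19.2 and 22.4. All 6 single-reporter arrays were above the other 6. Other probe sets of Ets1 averaged -2.87, -1.06 and -0.56. Ramp2, which forms the adrenomedullin receptor with Calcrl, gave -2.89 ± 0.50, also without overlap.

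Tek, the angiopoietin receptor Tie2, gave -3.10 ± 0.54, and Cdh5, the VE-cadherin of endothelial junctions, gave -2.93 ± 0.63 with a linear call that was lost without 1 array in most such fits. Nrp1, a co-receptor for vascular endothelial growth factor and semaphorins, measured 138, 164 and 153 units in the red-only, 126, 121 and 130 in the green-only, 82.0, 115 and 121 in the double-positive and 22.8, 33.5 and 31.4 in the double-negative arrays. The green-only levels of Nrp1 lay just above the double-positive ones, and its interaction of -2.66 ± 0.23 came mostly from low double-negative values. Other probe sets of Nrp1 averaged -2.60, -2.38 and -0.22. Cd93, a receptor of endothelial and myeloid cells, gave -2.75 ± 0.49 and had green-only values of 28.8, 95.7 and 81.8 units, again lowest in A. Other probe sets of Cd93 averaged -2.75 and -0.02, so they disagreed. Notch1, a receptor of arterial and endocardial cells, gave -2.10 ± 0.41.

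Genes called in all 4 comparisons of a single-reporter population with a double-positive or double-negative one numbered 35 with both single-reporter populations above, Ets1, Ramp2, Smad6 and Hhex among them, and 1 with both below. The 35 became 73 without the green-only array of A. They became 20 and 19 without the green-only array of B or C, 16, 16 and 22 without the double-positive array of A, B or C, and 21 without the double-negative array of B. All 6 single-reporter arrays exceeded the other 6 in 136 of the 735 genes with a negative interaction (1.05% of all genes tested show this pattern), and in 247 without the green-only array of A. Among the same 735 genes the double-negative arrays alone were lowest in 256 (5.66%) and the double-positive arrays alone in 74 (2.72%).

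Matrix and mesenchymal genes were led by the red-only cells. Of 22 tested, 11 were called below 0 (5.36% of all genes) and 0 above 0 by limma, with a median of -1.02 against 0.04 over all genes. Vim, the intermediate filament of mesenchymal cells, measured 2300.1, 2852 and 2469 units in the red-only, 1049, 2005 and 2220 in the green-only, 946, 1352 and 1222 in the double-positive and 569, 760 and 823 in the double-negative arrays. Red-only arrays of Vim were the highest and double-negative arrays the lowest, and its interaction was -2.36 ± 0.34 on the log2 scale and -2408 ± 395 units on the linear scale (limma adjusted p = 0.000848 and 0.00344). Fn1, the matrix glycoprotein fibronectin, averaged 1565 ± 301 units in the red-only arrays and 1282 ± 112 in the green-only arrays (SD, n = 3). Its double-positive mean was 749 ± 180 and its double-negative mean 699 ± 226 units (SD, n = 3), with an interaction of -2.01 ± 0.33.

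In a further set the red-only arrays alone stood apart. Cdh11, a cadherin of mesenchymal cells, measured 59.7, 49.4 and 44.4 units in the red-only arrays and between 3.67 and 14.3 in the other 9, with an interaction of -2.45 ± 0.41 (limma adjusted p = 0.00225). Foxc1, a forkhead factor of the second heart field and paraxial mesoderm, measured 69.6, 70.9 and 58.0 units in the red-only arrays and between 11.9 and 22.5 in the others. Its relative Foxc2 behaved alike, with interactions of -1.61 ± 0.24 for Foxc1 and -2.24 ± 0.52 for Foxc2. Green fluorescence thus went with lower Cdh11 and Foxc1 in red-positive cells (-3.11 ± 0.29 and -1.87 ± 0.17). No such fall was called in red-negative cells (-0.66 ± 0.29 and -0.27 ± 0.17, limma adjusted p = 0.138 and 0.32). Outside the red-only arrays Cdh11 reached down to 3.67 units, below every array median (6.29 to 6.73 units). A further fall of Cdh11 could hardly be measured there. Nnat, an imprinted gene for a small membrane protein, measured 2246, 1613 and 1413 units in the red-only arrays, 685, 812 and 764 in the double-negative, 504, 404 and 422 in the green-only and 262, 330 and 343 in the double-positive arrays. The red-only arrays of Nnat were highest and the double-positive arrays lowest, and its interaction was -1.71 ± 0.23. Among the 735 genes with a negative interaction the red-only arrays alone stood apart from the other 9 in 94 (2.7% of all genes tested).

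Igf2, the fetal insulin-like growth factor, had the most negative linear interaction, -3023.5 ± 564 units (limma adjusted p = 0.00674), and a log2 interaction of -1.96 ± 0.23. It measured 3454, 4188 and 3608 units in the red-only, 2278, 3196 and 2631 in the green-only, 1953, 2459 and 2401 in the double-positive and 908, 1215 and 1348 in the double-negative arrays. Igf2 was thus lowest in the double-negative and highest in the red-only arrays. Igfbp4, which binds insulin-like growth factors, gave -2.30 ± 0.33. Plagl1, an imprinted zinc finger factor measured by a probe set that can hybridise to related transcripts, gave -2.39 ± 0.27. Other probe sets of Plagl1 averaged -1.91 and -0.23.

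In the BMP pathway, whose ligands induce cardiac mesoderm, 11 of 22 tested genes were called below 0 (5.36% of all genes) and 0 above 0 by limma, with a median of -0.65. Among ligands, Bmp2 gave -1.87 ± 0.29 and Bmp5 -1.96 ± 0.29, and the receptor Bmpr2 gave -1.44 ± 0.22. Other probe sets averaged -1.145 and -0.507 for Bmp5 and -0.336 for Bmpr2. Bmp5 measured 125, 102 and 97.1 units in double-positive cells, between 58.3 and 79.7 in both single-reporter populations and 8.40, 12.6 and 17.1 in double-negative cells, so its groups were ordered with the double-positive arrays highest. Smad6, the inhibitory Smad that BMP signalling induces, instead measured 89.9, 82.7 and 74.6 units in the red-only and 90.4, 88.8 and 83.7 in the green-only arrays. It measured 66.6, 45.8 and 54.8 in the double-positive and 29.9, 27.6 and 36.1 in the double-negative arrays, so that the single-reporter arrays lay above all others, and its interaction was -2.08 ± 0.20 (limma adjusted p = 4.73e-05). Hhex, a homeobox factor of endoderm and endothelial precursors, gave -2.26 ± 0.32, also with the single-reporter arrays highest, and its green-only array of A was the highest of all at 198 units.

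Core cardiac factors were expressed in all 3 reporter-positive populations and were low in the double-negative cells. Of 21 tested, 13 were called below 0 (5.36% of all genes) and 0 above 0 by limma on the log2 scale, with a median of -1.26. On the linear scale 6 were called below 0 (4.26% of all genes) and 2 above 0 (5.64%), Myocd and, named after its value was seen, the muscle methyltransferase Smyd1. The median ratio of the double-positive level to the sum expectation (red-only plus green-only minus double-negative, per experiment) was 0.855, with 9 of 21 genes above 1. The same ratio to the product expectation (red-only times green-only over double-negative) was 0.428, with 2 of 21 above 1. The double-positive level of these genes was thus nearer to the sum of the reporter effects than to their product.

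Mef2c, a transcription factor required for heart tube formation, is an example. It measured 439, 487 and 447 units in the double-positive arrays, 190, 246 and 271 in the red-only, 166, 296 and 232 in the green-only and 13.9, 25.2 and 25.7 in the double-negative arrays. The double-positive arrays were above and the double-negative arrays below all others, and the single-reporter populations overlapped. Its log2 interaction was -2.46 ± 0.34 (limma adjusted p = 0.000641), while its linear interaction was 12.2 ± 40.3 units (limma adjusted p = 0.904). This linear mean joins values of opposite sign, 98.1 units in A, -30.4 in B and -31.2 in C. The double-positive level was 1.29, 0.941 and 0.935 of the sum expectation in these experiments. The mean double-positive level of 458 ± 25.5 units (SD, n = 3) stood beside a sum expectation of 445 units and a product expectation of 2534 units. The other 4 probe sets of Mef2c were also below 0 on average, between -2.00 and -0.62.

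Hand2 and Tbx20, both needed for right ventricle and chamber growth, gave -2.82 ± 0.34 and -2.73 ± 0.22. Other probe sets averaged -2.18 and -1.71 for Hand2 and -1.06 and -1.12 for Tbx20. Hand2 measured 175, 255 and 223 units in double-positive and 186, 247 and 239 in red-only cells, which overlapped, then 84.8, 167 and 157 in green-only and 14.9, 20.1 and 22.9 in double-negative cells. Its double-positive level was 0.644 ± 0.044 of the sum expectation. Isl1, which marks the second heart field, measured 76.5, 88.6 and 95.1 units in the double-positive, 100.3, 95.3 and 107 in the red-only, 89.2, 78.6 and 73.7 in the green-only and 44.3, 35.7 and 53.6 in the double-negative arrays. Isl1 was thus lowest in the double-negative arrays and highest in the red-only arrays, with overlap between the double-positive and green-only arrays. Its interaction was -1.09 ± 0.20 on the log2 scale and -50.0 ± 8.77 units on the linear scale (limma adjusted p = 0.00389 and 0.00504). Nkx2-5, the earliest cardiac homeobox factor, gave -1.37 ± 0.23 and had a double-positive level of 1.16 ± 0.12 times the sum expectation. Foxc1, Foxc2, Hand2, Tbx20, Isl1, Mef2c and Nkx2-5 made up the 7 called among 13 tested second heart field genes, all below 0 (5.36% of all genes), with a list median of -1.09.

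Sarcomere genes depended on the scale. Of 26 tested, 8 were called below 0 (5.36% of all genes) and 0 above 0 on the log2 scale by limma, with a median of -0.50 and 18 estimates below 0. On the linear scale 0 were called below 0 and 6 above 0 (5.64% of all genes), with a median of 230 units and 1 estimate below 0. The ratio of the double-positive level to the sum expectation, averaged over the experiments, was above 1 for all 26, although single experiments of some genes fell below 1, and its median was 1.67, while the median ratio to the product expectation was 0.771. By experiment the list's log2 median was 0.15 in A, -0.54 in B and -1.58 in C. The linear count of 6 became 3 without any double-negative array or the red-only array of A or B, 13 without the double-positive array of A and 12 without that of C.

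Tnnt2, the cardiac troponin T of the thin filament, measured 2214, 1609 and 1659 units in the double-positive, 741, 895 and 920.0 in the green-only, 274, 247 and 384 in the red-only and 28.5, 15.2 and 21.1 in the double-negative arrays. The 4 populations of Tnnt2 did not overlap. The red effect was 3.83 ± 0.22 without green and 1.09 ± 0.22 with green, and the log2 interaction was -2.73 ± 0.31 (limma adjusted p = 0.000187). The linear interaction was 695 ± 176 units in the opposite direction (limma adjusted p = 0.0289), a call lost without any 1 of the double-negative arrays or the red-only array of A or B. Its probe set can hybridise to related transcripts. A further probe set gave -2.96 ± 1.0 (SD over experiments) and another -0.18 ± 1.15.

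In all, 9 genes were called with opposite signs on both scales, each below 0 on log2 and above 0 on linear values. Sh3bgr, a muscle gene for a protein with an SH3-binding glutamate-rich stretch, kept both calls without any 1 array. It measured 842, 609 and 609 units in the double-positive, 218, 303 and 296 in the green-only, 74.4, 55.7 and 105 in the red-only and 10.4, 7.18 and 8.28 in the double-negative arrays. Its interactions were -1.82 ± 0.31 on the log2 scale and 344 ± 70.2 units on the linear scale (limma adjusted p = 0.00266 and 0.0103), and another probe set of it, at 0.19 ± 0.32 (SD over experiments), did not show the log2 interaction.

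Others of the 9 were Myl4, the atrial light chain, at -2.26 ± 0.34 and 1324 ± 366 units, Tnni1, the slow troponin I of the fetal heart, at -2.43 ± 0.22 and 628 ± 181 units, and Myocd, the cardiac coactivator of serum response factor, at -2.10 ± 0.21 and 39.0 ± 10.8 units. A further probe set of Myl4 averaged 0.23 on the log2 scale and so differed in sign. The linear calls of Myl4, Tnni1 and Myocd were lost in most fits without 1 array. The count of 9 was 3 without a double-negative array, 4 without the red-only array of A or B and 5 without the double-positive array of B, the green-only array of C or the red-only array of C.

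Ventricular light chains showed no log2 interaction that passed the test. Myl2, which marks ventricular muscle, measured 1230, 1194 and 864 units in the double-positive, 265, 566 and 352 in the green-only, 24.1, 28.7 and 48.8 in the red-only and 18.8, 11.0 and 15.6 in the double-negative arrays. The red-only arrays lay far nearer the double-negative arrays than the green-only ones did. Its log2 interaction was 0.40 ± 0.42 (limma adjusted p = 0.651) and its linear interaction 683 ± 124 units (limma adjusted p = 0.0058). Myl3 gave -0.53 ± 0.54 and 920 ± 184 units, called on the linear scale (limma adjusted p = 0.00936), and its log2 interaction was 0.95 in A but -1.34 and -1.20 in B and C. Its other probe sets averaged 0.00 and 0.11.

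**Figure D3:**
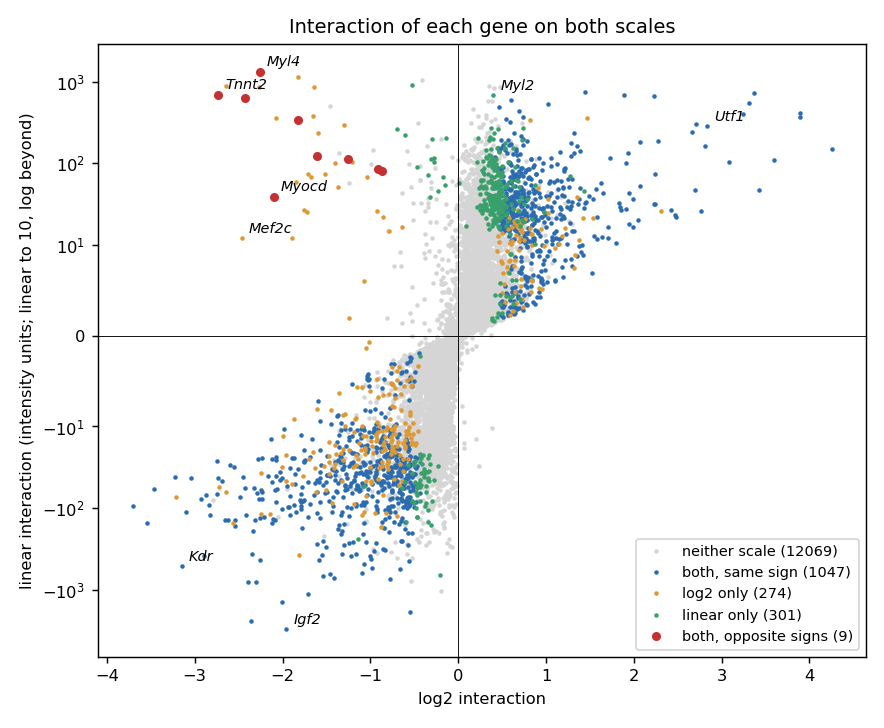
Each point is 1 of 13700 genes, with the log2 interaction on the x axis and the linear interaction in intensity units on the y axis (linear to 10 units, logarithmic beyond). Colours give the calls, and the 9 genes called with opposite signs sit at the upper left among the contractile genes, with Mef2c below them near 12 units.

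Across all genes, 1357 (9.91%) were called on the linear scale by limma, 773 above 0 (5.64%) and 584 below 0 (4.26%). The 773 became 494 without the red-only array of B. Of the 595 genes above 0 on the log2 scale, 518 were above 0 and 0 below 0 on the linear scale. Of the 735 below 0 on the log2 scale, 529 were also below 0 on the linear scale and 197 were not called. A further 246 genes were called above 0 and 55 below 0 on the linear scale only.

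Genes with the double-positive arrays highest and the double-negative arrays lowest, as for the contractile genes, made up 57 of the 1330 called genes (2.47% of all genes tested). Promoters of 43 of them were in the RefSeq table (GRCm38.p6, 250 bases before to 50 after each start, 59 promoters). They were searched on both strands for the CArG box, the site of serum response factor that drives many muscle genes. It was in 3 of the 59 (5.08%), those of Actc1, Myl7 and Fermt2 (the last outside the rule for named genes and taken after its match was seen), against 187 of 14021 promoters (1.33%) of all genes tested. The promoters of Actc1, the cardiac actin, and Myl7, the atrial regulatory light chain, are shown because each held a match. Promoters of the group without a match are not shown, whatever the level of their gene. The sequences run 5′ to 3′ on the minus strand with the CArG box in capitals.
Actc1: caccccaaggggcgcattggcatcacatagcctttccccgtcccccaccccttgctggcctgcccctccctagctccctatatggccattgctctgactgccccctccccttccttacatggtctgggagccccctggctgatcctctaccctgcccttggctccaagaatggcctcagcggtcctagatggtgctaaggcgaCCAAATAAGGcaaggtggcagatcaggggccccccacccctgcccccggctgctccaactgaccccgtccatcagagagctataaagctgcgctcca
Myl7: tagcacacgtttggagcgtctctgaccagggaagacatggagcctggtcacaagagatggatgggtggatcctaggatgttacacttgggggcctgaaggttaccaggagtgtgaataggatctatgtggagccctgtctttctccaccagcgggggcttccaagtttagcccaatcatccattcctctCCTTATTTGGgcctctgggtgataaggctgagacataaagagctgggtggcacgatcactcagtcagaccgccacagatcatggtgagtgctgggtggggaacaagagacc
The Actc1 promoter lies at chr2:114052826-114053125 and the match begins 47 bases before the start. The Myl7 promoter lies at chr11:5898733-5899032 and the match begins 61 bases before the start. The TATA sequence TATAAA was in 15.3% of the 59 against 8.01% of promoters of genes tested, and AGATAA, read by GATA factors, in 8.47% against 6.93%. The octamer ATGCAAAT and the ETS sequence CCGGAAGT were in 0 of the 59. In the promoters of the genes with all single-reporter arrays highest, CCGGAAGT was in 5.19% against 6.84% of genes tested. A match describes these letters in this window and not a bound site.

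Myl7 measured 6442, 5386 and 5699 units in the double-positive, 2899, 3584 and 3875 in the green-only, 1347, 1517 and 2075 in the red-only and 185, 130 and 149 in the double-negative arrays. Actc1 measured 5244, 4294 and 4142, then 2808, 3106 and 3170, then 844, 505 and 956, and 157, 77.6 and 89.0 units in the same order. The populations of both genes did not overlap. Their log2 interactions were -2.64 ± 0.24 and -2.27 ± 0.36 (limma adjusted p = 3.96e-05 and 0.00149), and their linear interactions of 898 ± 635 and 872 ± 483 units were not called (limma adjusted p = 0.456 and 0.319). Acta2, the smooth muscle actin that early cardiac cells also express, gave -1.64 ± 0.24 on the log2 scale, from a probe set that several transcripts share. Its other probe sets averaged 0.53 and 0.05 and did not show the negative interaction.

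A smaller group ran the other way, with single-reporter cells lowest. Chchd10, a protein of the mitochondrial intermembrane space, measured 343, 284 and 229 units in the double-positive and 255, 288 and 254 in the double-negative arrays, which overlapped. It measured 181, 223 and 157 units in the green-only and 66.3, 47.7 and 74.0 in the red-only arrays. Red-only cells were lowest and green-only cells between, and the red effect was -2.11 ± 0.18 without green and 0.61 ± 0.18 with green (limma adjusted p = 3.74e-06 and 0.076). The interaction was 2.71 ± 0.26 on the log2 scale (limma adjusted p = 4.73e-05) and 302 ± 34.6 units on the linear scale, and several transcripts share this probe set.

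Got1, the cytosolic aspartate aminotransferase, gave 1.29 ± 0.19 and Hprt, a purine salvage enzyme often used as a reference gene, gave 1.31 ± 0.14. Hprt measured 162, 156 and 156 units in the double-positive, 202, 235 and 202 in the double-negative, 136, 132 and 143 in the green-only and 89.4, 98.5 and 109 in the red-only arrays, without overlap between populations. Oxct1, which lets mitochondria use ketone bodies, gave 1.25 ± 0.22. Gstm1, a glutathione transferase, was the gene with both single-reporter populations below both others in all 4 comparisons. Its means were 54.1 ± 4.25 units in double-positive, 52.9 ± 6.23 in double-negative, 37.1 ± 3.80 for red alone and 36.6 ± 7.63 for green alone (SD, n = 3), and its interaction was 1.09 ± 0.20 (limma adjusted p = 0.00437). It failed 1 of the 4 comparisons without the double-negative array of A, the double-positive array of A or the red-only array of C. In each of these fits 0 genes passed, and 2 genes passed without the green-only array of A or B. Other probe sets of Gstm1 averaged 1.05, 0.61 and 0.10 on the log2 scale, so they disagreed in size.

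Tdgf1, the Nodal co-receptor Cripto, stood apart from the other pluripotency genes. It measured 221, 169 and 186 units in the double-positive arrays, 48.8, 51.2 and 83.4 in the green-only, 50.2, 65.2 and 63.5 in the double-negative and 21.2, 24.7 and 38.4 in the red-only arrays. Double-positive cells were highest and red-only cells lowest, with green-only and double-negative cells overlapping. The red effect was -1.12 ± 0.23 without green and 1.69 ± 0.23 with green (limma adjusted p = 0.00295 and 0.00165), opposite in sign and both called, and the interaction was 2.81 ± 0.32 (limma adjusted p = 0.000212). Fabp3, the heart fatty acid binding protein, had the same form with -0.82 ± 0.17 and 1.24 ± 0.17. Tdgf1 and Fabp3 were among 11 genes that fell with red in green-negative and rose with red in green-positive cells, a count that was 4 without the double-positive array of A and 5 without that of B or the double-negative array of A.

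Fabp3 belongs to the list of mitochondrial energy genes. Of 24 tested, 6 were called above 0 (4.34% of all genes) and 0 below 0 by limma, with a median of 0.41. Idh3a, of the citric acid cycle, gave 1.39 ± 0.20, and the cytochrome oxidase subunits Cox7a1, the heart and muscle form, and Cox5a gave 1.28 ± 0.21 and 0.70 ± 0.14. Other probe sets of Idh3a averaged lower, at 0.48, 0.48 and 0.31, and another of Fabp3 averaged 0.28. Cox5a measured 1274, 1178 and 1028 units in the double-positive arrays, between 764 and 823 in the green-only, 678 and 745 in the double-negative and 627 and 686 in the red-only arrays, so that the double-positive arrays lay above all others. On the linear scale 8 of 24 were called above 0 (5.64% of all genes). The list summed to between 9852 and 11779 units in the double-positive arrays and to between 6691 and 7990 in the rest.

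**Figure D4:**
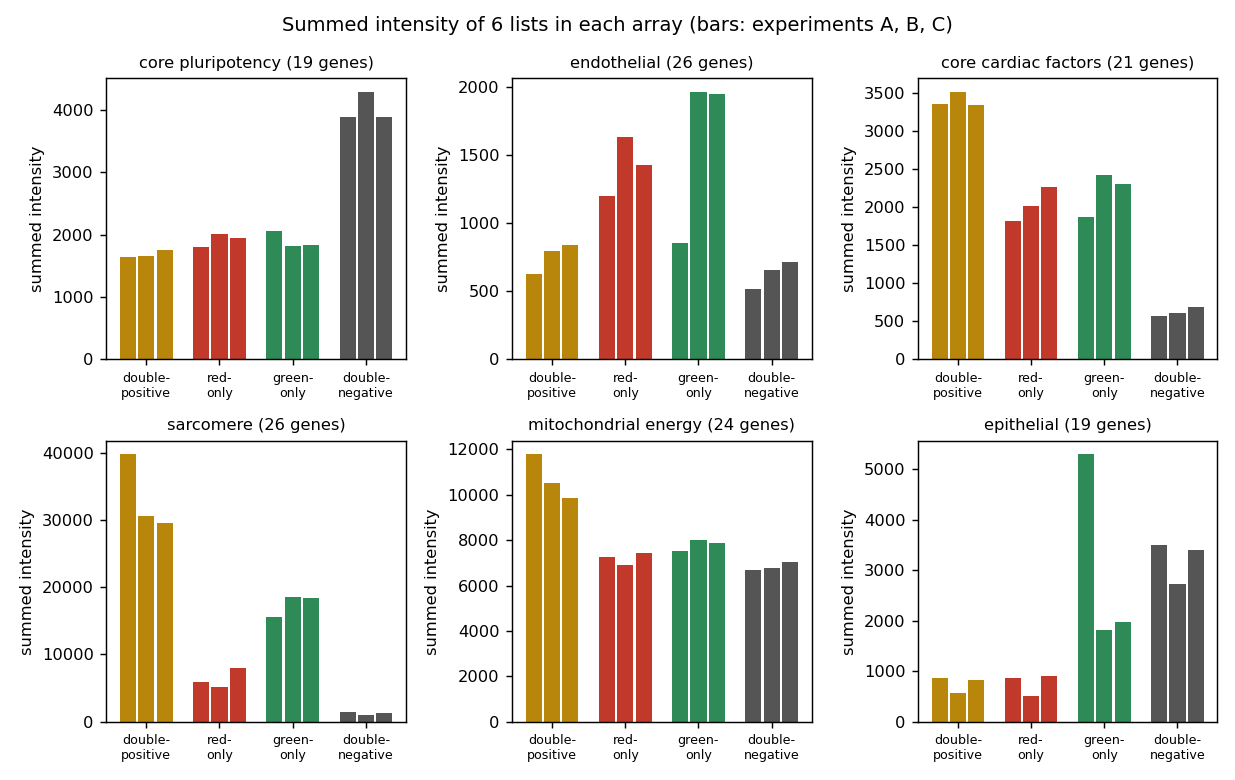
Summed intensity of the tested members of 6 lists in each array, with 3 bars for experiments A, B and C in each population and axes from 0. Pluripotency genes are highest in the double-negative arrays, endothelial genes in the single-reporter arrays, cardiac, sarcomere and mitochondrial genes in the double-positive arrays, and the green-only array of A leads the epithelial genes at 5290 units.

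Fgf15, a ligand of the early neural tube, measured 48.8, 42.2 and 55.7 units in the double-negative arrays and between 7.98 and 12.9 in the others, an interaction of 1.99 ± 0.19. It was the called gene on the log2 scale among 18 tested FGF genes, a share near the 4.34% of all genes above 0. On the linear scale 2 of the 18 were called above 0 (5.64% of all genes). Furin, a protease that processes Nodal and BMP precursors, gave -1.37 ± 0.15. Among 14 Nodal genes the called ones were Furin, below 0 (5.36% of all genes), and Tdgf1, above 0 (4.34%). In the stress and dissociation list 5 of 21 were called below 0 (5.36% of all genes) and 1 above 0 (4.34%), with a median of -0.50. Besides Junb they were the immediate-early genes Egr1, Ier2, Nr4a1 and Zfp36, the last named after its value was seen. Egr1 and Nr4a1 lost the call in several fits without 1 array. The count of 5 was 3 without the double-negative array of A or the green-only or red-only array of C. Junb, an immediate-early factor that responds to cell dissociation, gave -1.78 ± 0.36 with 166, 200.1 and 313 units in the red-only arrays, and Hspb1, a small heat shock protein of muscle, gave 1.47 ± 0.34.

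The 29 cell cycle genes tested had a log2 median of 0.21. On the linear scale 6 of them were called above 0 (5.64% of all genes) and 0 below 0. The called gene on the log2 scale was Cdkn1c, a cell cycle inhibitor, at -1.59 ± 0.29 (5.36% of all genes below 0). It measured 1893, 1999 and 2178 units in the double-positive, 815, 1084 and 1242 in the green-only, 666, 865 and 1139 in the red-only and 127, 133 and 188 in the double-negative arrays, and its linear interaction of 236 ± 183 units was not called. Calcium handling and channel genes had 0 called of 18 on the log2 scale, with a median of 0.22, and 2 called above 0 on the linear scale, the channel subunit Cacna1c and the calcium store protein Casq1, named after their values were seen. Neural genes had 2 of 12 called above 0 (4.34% of all genes), Stmn2 and Tubb3 of neuronal microtubules, at 1.57 ± 0.25 and 0.95 ± 0.16. Endoderm genes had 2 of 21 called below 0, Gata6 and Hhex, beside 5.36% of all genes. Other probe sets of Gata6 averaged -1.555 and 0.0006. Rab25, a vesicle GTPase of epithelia, was the called gene on the log2 scale among 19 epithelial genes at 0.96 ± 0.17 (4.34% of all genes above 0). On the linear scale 3 of the 19 were called above 0 (5.64% of all genes) and 0 below 0. In contrast, 18 of the 19 differed between red-only and double-negative cells and 13 between double-positive and green-only cells. Epithelial genes thus fell with red in both backgrounds, with 0 rising in either, against 12.1% and 2.61% of all genes that fell.

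**Figure D5:**
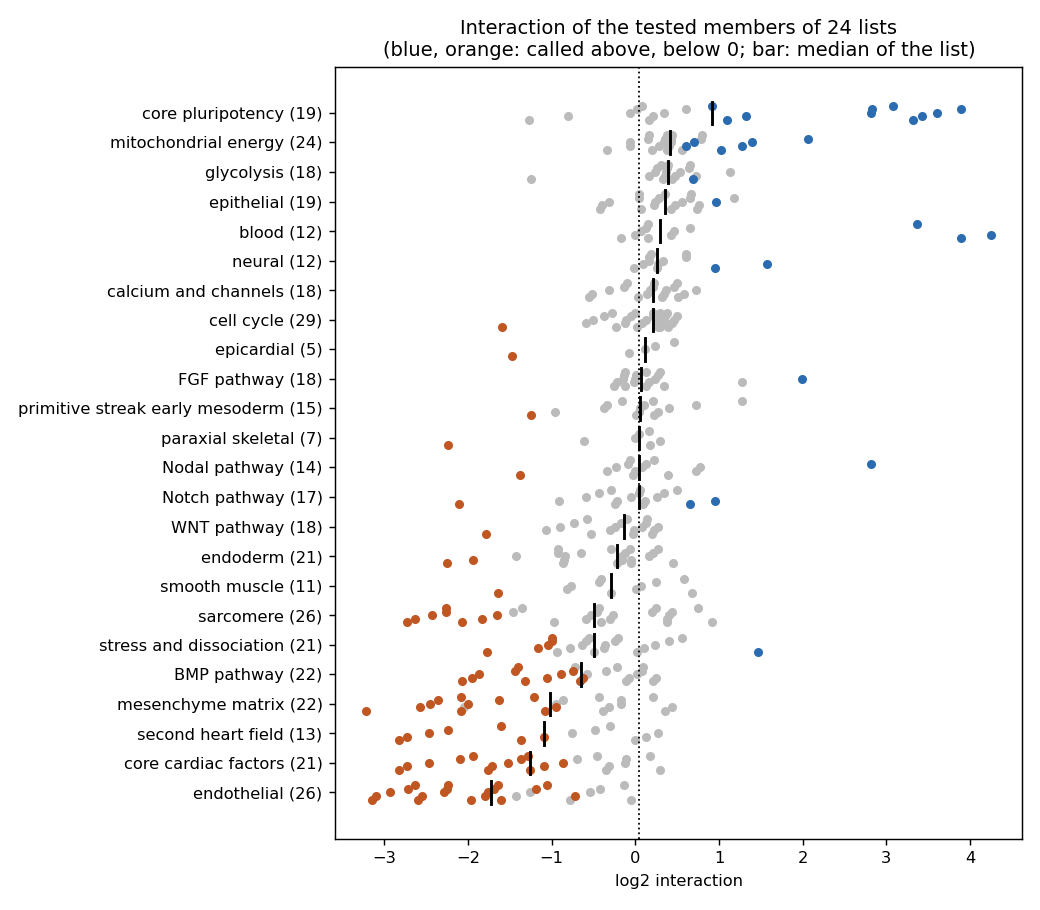
Log2 interaction of each tested member of 24 gene lists, with called members in blue (above 0) and orange (below 0), a bar at each list's median and a dotted line at the median of all genes, 0.04. Pluripotency genes lie highest with a median of 0.92 and endothelial genes lowest with -1.72.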

How the data were processed

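The 12 arrays were analysed from the deposited value table. Its values are linear intensities, and the authors named MAS5 without a version, per the submitters' processing notes. The lowest value is 2.09 and array medians run from 6.29 to 6.73, and the exact scaling is not given in the sources used here. Of 45037 probe sets that are no controls, 34945 had 1 gene symbol in the platform annotation, 932 several and 9160 none. The probe set with the highest mean log2 value was kept for each of 18193 genes, and the 13700 genes with a mean at or above the 40th percentile (2.38) were tested.

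Intensities were put on the log2 scale with no pseudocount. Group means were modelled by limma 3.58.1, run under R 4.3.3, which leaves 8 residual degrees of freedom, with Benjamini-Hochberg adjustment over 13700 genes and a threshold of 0.05. The linear interaction was fitted on intensities with limma's intensity trend. Expectations and sums were computed per experiment. The fit was also run on simulated data with independent noise in each array, unlike the same-lettered arrays here, whose deviations correlated. No result above rests on that run. Precision is limited by 3 arrays per population, and the array number is the only depth known.

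Named genes were Utf1, Nanog, Kdr, Mef2c, Nkx2-5 and Isl1, the 10 largest called log2 and the 8 largest called linear interactions of each sign with the same sign in all experiments, 8 with opposite signs between scales by the product of both sizes, the 8 largest with single-reporter arrays all highest or all lowest, and up to 5 called members of each list. The gene lists and named members were chosen with earlier results of these data known. Alternatives changed the filter, pseudocount, probe set, normalization, prior, replicate block and arrays left out. The reporters themselves were not measured, and the unit of every sum is intensity.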

Additional observations from a re-analysis of the deposited data

Results flagged for a closer look

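The red effect differed with green in 1330 genes by the limma test of the interaction itself, at a Benjamini-Hochberg adjusted p below 0.05. In 35 genes both single-reporter populations were above both others in all 4 limma comparisons, and in 1 gene, Gstm1, both were below. The red effect was called upward without green and downward with it in 59 genes, and downward without green and upward with it in 11. The 59 became 101 without the green-only array of A, 26 and 30 without the double-positive array of A or B, and 34 without the green-only array of C. The 11 became 4 without the double-positive array of A and 5 without that of B or the double-negative array of A. An interaction was also called for 126 of 3794 tested probe sets with no gene symbol or several (3.32%), 70 above 0 and 56 below 0, which no comparison above uses.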

How the results depend on the processing

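Of the values computed under the alternatives, those of called results kept their direction. The uncalled Mef2c linear interaction ranged from -30.8 to 44.6 units and the uncalled Myl2 log2 interaction from -0.33 to 0.78. With each array, or all arrays of 1 experiment, left out, genes above 0 on the log2 scale ranged from 90 to 717 and below 0 from 132 to 790, and on the linear scale from 88 to 939 and 62 to 694. The lowest counts came with experiment B left out, which also removes 4 arrays. The effect of red ranged from 172 to 683 genes in green-positive and 1586 to 3411 in green-negative cells, and that of green from 538 to 1781 in red-positive and 1136 to 2989 in red-negative cells. Pattern counts ranged from 55 to 505 (double-negative high), 32 to 304 (double-negative low), 18 to 74 (double-positive high and double-negative low), 17 to 81 (double-positive low), 59 to 276 (single-reporter high) and 12 to 84 (single-reporter low), and opposite signs between scales from 0 to 12. Genes called below 0 ranged from 2 to 23 (endothelial), 6 to 14 (core cardiac), 3 to 8 (second heart field), 5 to 10 (sarcomere), 2 to 11 (mesenchymal), 3 to 10 (BMP) and 0 to 7 (stress), and mitochondrial genes above 0 from 2 to 6. List medians ranged from -1.41 to -1.12 (core cardiac), -0.76 to -0.55 (BMP) and -0.68 to -0.30 (stress). An absolute interaction of at least 1 left 153 genes above and 360 below 0. Pluripotency genes above 0 numbered 6 with all means above the array medians, where fewer genes are tested, with a median of 0.47, also 0.47 with the filter at the 60th percentile and 0.59 with pseudocounts at the 25th percentile or the median. Under these pseudocounts the medians were -1.02 and -0.99 for core cardiac and -0.38 and -0.37 for stress genes. The mesenchymal median was -1.42 with the filter at the 60th percentile. Of 96 named genes called on the log2 scale, 80 were called in every fit without 1 array. Under the alternatives that kept all arrays, 82 were called in every fit that tested them. Fits without a whole experiment are in neither count. Of the 1330 genes called on the log2 scale, 832, 222 and 366 were also called without experiment A, B or C. Causes were not tested. With the replicate block, 864 genes were above and 994 below 0, red in green-positive cells was called for 1148, and 8 stress genes were below 0. Deviations of same-lettered arrays correlated at 0.0945 to 0.404 over 18 pairs, and those of differently lettered arrays of different populations at 0.0822 at most. Every array thus correlated best with its own letter, a hint of pairing from the data, but not every pair passed 0.1 and the labels name no shared batch. Probe sets near the lowest values bound folds.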

Other observations

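A metallothionein and a phosphatase gene were highest in the double-negative arrays. Mt2, which binds zinc and copper, measured 1160, 1327 and 1136 units in the double-negative arrays, with a mean of 464 in the double-positive, 423 in the red-only and 494 in the green-only arrays. Its interaction was 1.45 ± 0.20 on the log2 scale (limma adjusted p = 0.000639). Mtm1, a phosphoinositide phosphatase, gave 2.23 ± 0.50 (limma adjusted p = 0.0127). Several lists held 1 called gene each on the log2 scale. They were WNT (Dkk1 of 18 tested), glycolysis (Ldhb of 18) and smooth muscle (Acta2 of 11). The same held for paraxial (Foxc2 of 7), epicardial (Tcf21 of 5) and early mesoderm (Snai1 of 15) genes. Ldhb was above 0 (4.34% of all genes) and the other called genes below 0 (5.36%). A single call in so short a list was not read as a result about the list. Among 17 Notch genes, Dll3 and Lfng were called above 0 (4.34% of all genes) and Notch1 below 0 (5.36%). Dkk1, Ldhb, Tcf21, Snai1, Dll3 and Lfng lost the call in at least 1 fit without 1 array. A further probe set of Tcf21 averaged 0.25 on the log2 scale and so differed in sign.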
